A study of Mus musculus with 8 samples.

Results

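Horizontal cell genes were examined as the 5 genes Onecut1, Onecut2, Lhx1, Prox1, and Calb1, of 21831 genes in the deposited expression tables. The rule takes the rows that carry these symbols and uses no measured value, but the set was proposed with earlier results of these data known. Each symbol had 1 row in each table. RNA sequencing covered 8 samples of mouse retina of the slc:ICR background, with 1 library for each condition. Whole retinas were taken at embryonic day (E) 15 and 18. At postnatal day (P) 2, 5, and 8, retinas were pooled and the cells were sorted by the surface protein Cd73, which marks rod photoreceptors and their precursors, into positive (Cd73PC) and negative (Cd73NC) cells. Nothing in the labels names an allele, a transgene, or a treatment in these animals. The purpose of the sort was to follow photoreceptors and the other retinal cells apart from each other, and horizontal cells would be counted among the other cells, those without Cd73.

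Horizontal cells are interneurons of the inner nuclear layer that receive input from cones and rods and feed back onto them. They are among the early-born cells of the mouse retina and make up a small share of its neurons. Foxn4 and Ptf1a act in progenitors and precursors of horizontal and amacrine cells. Onecut1 and Onecut2, homeodomain proteins with a cut domain, act in horizontal cell formation, Prox1 in horizontal cell specification, and Lhx1, a LIM homeodomain protein, in the placement of horizontal cells in their layer. Calb1 encodes calbindin, a calcium-binding protein widely used to stain horizontal cells. None of these genes belongs to horizontal cells alone: Onecut1 and Onecut2 are also found in ganglion cells and cone precursors, Prox1 in progenitors, bipolar cells, AII amacrine cells, and Müller glia, and Calb1 in some amacrine and ganglion cells.

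Values are FPKM, which corrects for the length of a transcript and the reads mapped in a library, so levels can be compared between genes per length. The authors' software also gave confidence bounds below and above each value. The bounds describe the estimate within a library and not the variation between animals, and conditions at a single stage, with 1 library each, were compared without a test. The fractions could be tested over the 3 stages as pairs. For Onecut1, Lhx1, Prox1, and Calb1 the FPKM moved in steps worth 1 read (all values within 0.0147 of a whole number of reads), which gave the reads behind each value. Onecut2 gave no such step, and its reads are unknown. Intervals for reads are exact Poisson intervals at 95% and cover counting error only, since PCR copies are not independent molecules. The libraries differed in depth from 0.965 (E15) to 1.62 (P2 Cd73PC) relative to E18. The sort could be checked on Nt5e, which encodes Cd73 itself: by stage, FPKM was 97.3, 131, and 124 in Cd73PC against 2.43, 31.4, and 9.38 in Cd73NC. Rod markers were also not absent from Cd73NC, where the FPKM of 8 rod genes summed to 79.6, 1076, and 979.9 in order of stage, against 4088, 8883, and 14078 in Cd73PC.

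Upstream sequences are shown for Onecut1, Lhx1, and Prox1, because the course of Prox1 over the 8 libraries ran apart from that of the other pair. These 3 of the 5 genes were in a RefSeq promoter table of build GRCm38.p6. Its 250 bases upstream of the start were found by exact match in build NCBIM37 (mm9), the build of the deposited tables. Each line below is 5′ to 3′ on the strand of the gene, and capitals mark a match to 1 of 3 motifs searched on both strands: ATTGAT, the core bound by Onecut proteins, ATTGG, the reverse of the CCAAT box, and TAATTA, a homeodomain core. For Prox1, which has more than 1 start in that table, the most upstream is shown.
Onecut1, chr9:74709478-74709727, plus strand: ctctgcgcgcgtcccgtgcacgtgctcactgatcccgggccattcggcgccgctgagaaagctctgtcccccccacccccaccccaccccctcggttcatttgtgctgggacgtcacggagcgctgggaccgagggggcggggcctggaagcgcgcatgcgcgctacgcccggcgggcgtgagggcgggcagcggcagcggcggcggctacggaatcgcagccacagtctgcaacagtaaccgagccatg
Lhx1, chr11:84339037-84339286, minus strand: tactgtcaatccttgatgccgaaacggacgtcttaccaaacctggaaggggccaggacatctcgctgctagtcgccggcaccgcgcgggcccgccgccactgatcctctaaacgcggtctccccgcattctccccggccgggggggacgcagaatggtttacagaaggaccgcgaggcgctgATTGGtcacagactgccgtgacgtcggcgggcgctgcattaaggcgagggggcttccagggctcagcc
Prox1, chr1:191994707-191994956, minus strand: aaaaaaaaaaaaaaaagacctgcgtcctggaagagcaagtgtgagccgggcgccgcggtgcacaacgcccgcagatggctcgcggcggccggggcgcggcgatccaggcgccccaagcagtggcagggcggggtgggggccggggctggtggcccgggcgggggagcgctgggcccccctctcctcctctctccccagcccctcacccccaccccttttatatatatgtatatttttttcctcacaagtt
The Onecut1 and Lhx1 windows ended directly before the start of the deposited row, and that of Prox1 ended 147 bases before it. GC content was 71.6% for Onecut1 and 64.8% for Lhx1 and for Prox1, against a median of 52.4% over all 32851 windows of the table. The search found 1 ATTGG in the Lhx1 window, at position -68 counted back from -1 at its last base, and no ATTGAT or TAATTA in any of the 3. Of all windows, 33.8% held ATTGG, 6.72% ATTGAT, and 4.84% TAATTA. The looser E-box CANNTG, not capitalized, occurred 2 times each for Onecut1 and Prox1 and in 66.2% of all windows. No 2 of these matches overlapped.

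Onecut1 (9:74709728-74737454, plus strand) was highest in the youngest library and was lower at each later stage. Its FPKM was 14.2 at E15 and 4.29 at E18, then 1.61, 0.403, and 0.129 in Cd73PC by stage from P2 to P8, and 0.774, 0.427, and 0.0812 in Cd73NC. These values rested on 669 and 210 reads in the embryonic libraries and on 127, 22, and 8 reads in Cd73PC and 48, 24, and 6 reads in Cd73NC. E15, E18, and P2 Cd73PC each stood apart from the next lower library by their bounds. From P2 Cd73NC downward, neighbors in the order of levels overlapped. The row also covers a processed transcript, Gm16551, and a microRNA, AC100600.1, on the same strand, so reads of these cannot be told from those of Onecut1. Of its 1780 distinct stretches of 36 bases, the read length, 0.843% also occur in Onecut3.

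Onecut2 (18:64500018-64558142, plus strand) was also lower at E18 than at E15 and, in Cd73PC, lower at P5 than at P2, but in Cd73NC it was higher at P5 than at P2. The FPKM was 7.90 at E15 and 1.89 at E18. The Cd73NC libraries of P2, P5, and P8 had 0.872, 1.53, and 1.34 FPKM, and those of Cd73PC 0.795, 0.355, and 0.328. The P5 and P8 Cd73NC values overlapped each other, the former overlapped E18, and both stood above the remaining 4 postnatal libraries. The relation between the paralogs turned over after birth. The ratio of Onecut1 to Onecut2, both in FPKM, was 1.79 at E15 and 2.27 at E18. In the Cd73NC libraries by stage it was 0.887, 0.278, and 0.0606, and at P2 the bounds of the paralogs overlapped. Onecut2 was thus 16.5-fold above Onecut1 in P8 Cd73NC, where Onecut1 rested on 6 reads. In Cd73PC the same ratios were 2.02, 1.13, and 0.392, so the relation turned over there as well by P8.

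**Figure D1:**
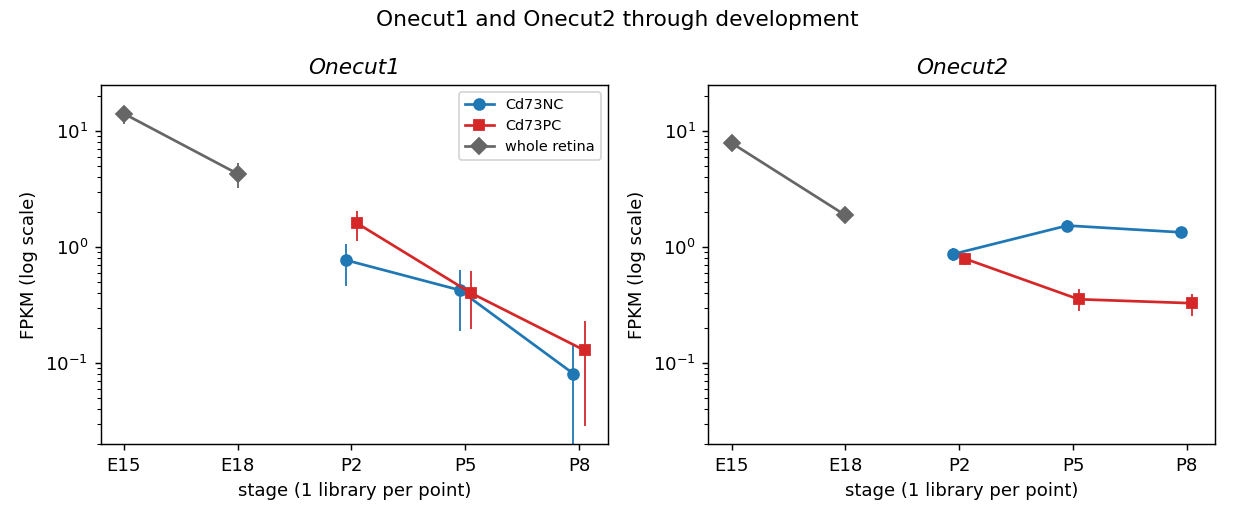
FPKM of Onecut1 (left) and Onecut2 (right) on a log axis against stage, with 1 library per point and the deposited confidence bounds as vertical lines (the lower bound of 0 for Onecut1 in P8 Cd73NC is drawn to the axis edge). Grey diamonds are whole retina, blue circles Cd73NC, red squares Cd73PC. In Cd73PC both genes have lower values at each later stage, with overlapping bounds between P5 and P8. In Cd73NC so does Onecut1, with overlapping bounds between P2 and P5, and Onecut2 lies between 0.872 at P2 and 1.53 at P5.

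Lhx1 (11:84332881-84339036, minus strand) was low in all 8 libraries and higher in the embryonic ones. Its FPKM was 1.08 at E15 (40 reads, 28.6 to 54.5) and 1.25 at E18 (48 reads, 35.4 to 63.6). After birth, FPKM was 0.123, 0.0452, and 0 in Cd73NC by stage and 0.0965, 0.0466, and 0.0205 in Cd73PC. The postnatal reads were 6 in each P2 fraction, 2 in each P5 fraction, 0 in P8 Cd73NC, and 1 in P8 Cd73PC. The embryonic libraries overlapped each other and stood apart from all postnatal libraries, which overlapped their neighbors. Against a floor of 3 reads for the library at 0, an FPKM of 0.0517, E18 was at least 24.1-fold and E15 at least 20.8-fold higher than P8 Cd73NC. At this depth a difference between the sorted fractions was not detectable for Lhx1.

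Calb1 (4:15808411-15833856, plus strand) had a single peak, at E18. The FPKM was 0.335 at E15 (13 reads, 6.92 to 22.2) and 1.24 at E18 (50 reads, 37.1 to 65.9). The P2 fractions had 0.392 FPKM for Cd73NC (20 reads) and 0.477 for Cd73PC (31 reads), and at P5 and P8 the value lay between 0.0216 and 0.0588 in all 4 fractions, on 1 to 3 reads. The bounds set apart E18, then P2 together with E15, then P5 and P8. Within each of the lower levels the libraries overlapped. Although calbindin is a standard stain for horizontal cells, its RNA reached FPKM 1 in 1 of 8 libraries.

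**Figure D2:**
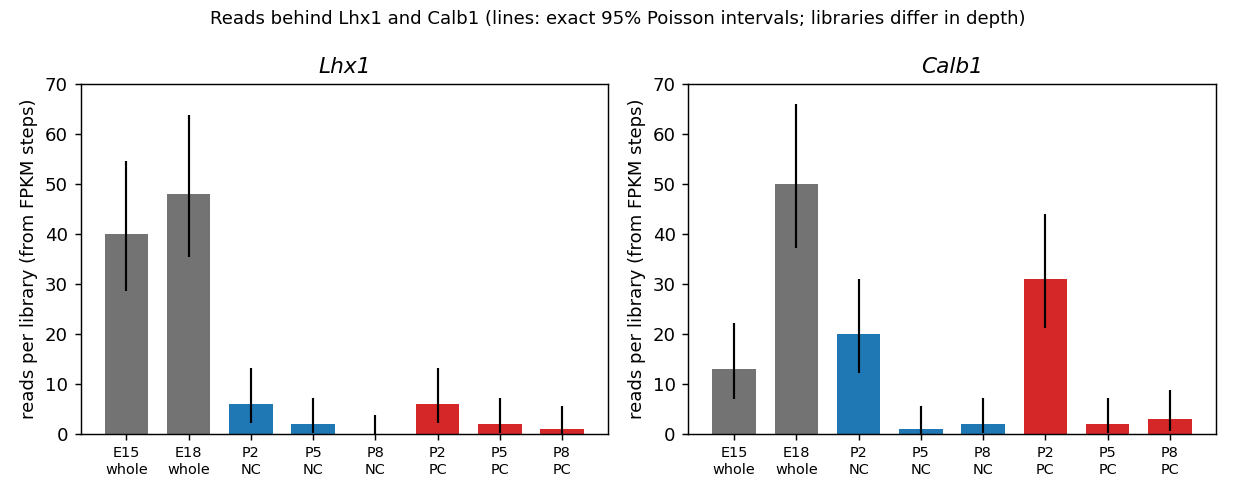
Reads behind Lhx1 (left) and Calb1 (right) in each library, as read from the steps of FPKM and not scaled for depth, with exact 95% Poisson intervals as black lines. Grey bars are whole retina, blue Cd73NC, and red Cd73PC. Lhx1 had 40 and 48 reads in the embryonic libraries and 0 to 6 afterwards, and Calb1 had 50 at E18 and 1 to 3 at P5 and P8.

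Prox1 (1:191945658-191994559, minus strand) took a different course, highest in P8 Cd73NC, and was by far the most abundant of the 5 genes after birth. Its FPKM was 10.4 at E15 and 12.2 at E18, which overlapped. By stage after birth, Cd73NC had 18.1, 40.9, and 166 FPKM, and Cd73PC 4.76, 5.96, and 21.2. The reads were 596 and 726 in the embryonic libraries, 1360, 2791, and 14853 in Cd73NC, and 457, 395, and 1598 in Cd73PC. Apart from the embryonic pair and the P2 and P5 Cd73PC pair, every library stood apart from its neighbor in the order of levels. By FPKM, Prox1 was in place 6206 of 21825 genes at E18 and in place 311 of 21824 in P8 Cd73NC. The P8 Cd73NC value lies above its own deposited upper bound of 163, so the bounds there do not bracket the estimate. The start of the row overlaps a long noncoding RNA, Gm17566, on the plus strand. The library protocol names no step that keeps the strand, and reads from that overlap cannot be told apart.

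**Figure D3:**
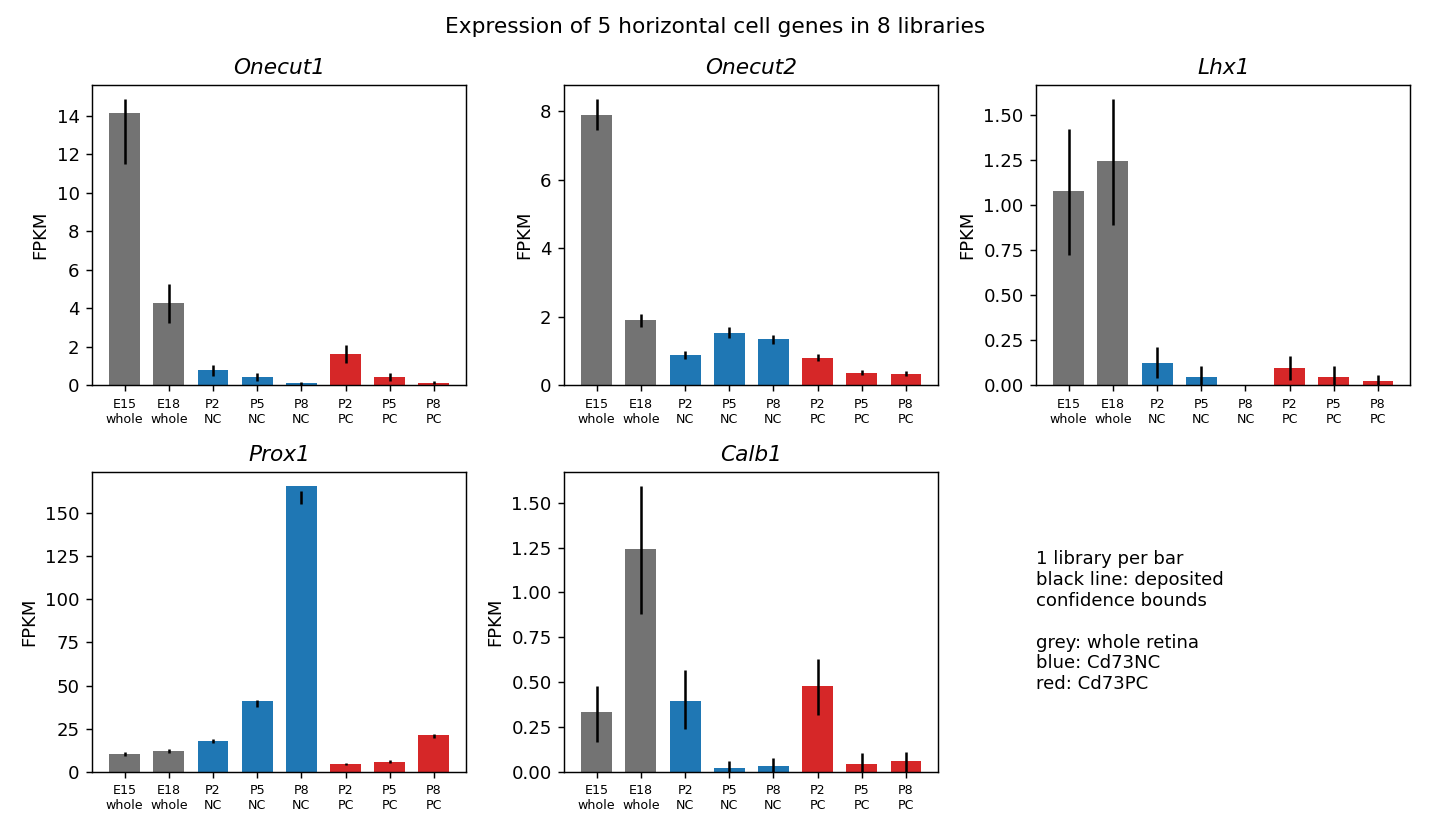
FPKM of each gene (y axis, a separate linear scale from 0 per gene) in 8 libraries, 1 bar per library, with the deposited confidence bounds as black lines. Grey is whole retina, blue Cd73NC, and red Cd73PC. Onecut1, Onecut2, Lhx1, and Calb1 are highest in an embryonic library, and Prox1 in P8 Cd73NC at 166, above its own upper bound.

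Between E15 and E18 the members changed in both directions. A gene was counted as past 1.5-fold, the threshold of the study, on FPKM + 1, which makes changes of genes at low levels look smaller than they are. By this rule 2 members were lower and 1 was higher at E18, where 6.71% of all genes passed, 2.1% lower and 4.61% higher. Onecut1 was 3.30-fold lower, a log2 ratio of -1.52 on FPKM + 1, and 33 genes had a smaller ratio. Onecut2 was 4.19-fold lower, a log2 ratio of -1.63, and 29 genes had a smaller one. Both therefore lay among the largest decreases between these libraries. Calb1 was 3.71-fold higher, with a log2 ratio of 0.75, which under quantile normalization was 0.52 and no longer past 1.5-fold. Lhx1 and Prox1, with log2 ratios of 0.11 and 0.21, had overlapping bounds.

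From E18 whole retina to P2, the comparison is between a whole tissue and a sorted fraction, so stage and sorting cannot be told apart. Of the 5 genes, 4 were lower in P2 Cd73NC, as were 8.21% of all genes by the same rule. All 5 were lower in P2 Cd73PC, as were 18.3% of all genes. These counts depended on scaling: under quantile normalization 2 of 5 stayed lower in P2 Cd73PC, Lhx1 and Prox1, and 2 in P2 Cd73NC, Onecut1 and Lhx1, where Prox1 then passed as higher with a log2 ratio of 0.59. Upper-quartile scaling left 4 of 5 lower in P2 Cd73PC, without Calb1. In P2 Cd73NC, Onecut1 was 5.54-fold lower, Lhx1 10.1-fold, Calb1 3.17-fold, and Onecut2 2.16-fold. In P2 Cd73PC, the same genes were 2.67-fold, 12.9-fold, 2.61-fold, and 2.37-fold lower. Prox1 was 1.48-fold higher in P2 Cd73NC, with a log2 ratio of 0.53 that did not pass 1.5-fold, and 2.57-fold lower in P2 Cd73PC. In RNA of bulk samples, fewer cells of a type and less RNA per cell cannot be told apart.

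The sorted fractions differed beyond the bounds in Prox1 at all 3 stages, in Onecut2 at P5 and P8, and in Onecut1 at P2 only. At P2, 1 of 5 members passed 1.5-fold between Cd73PC and Cd73NC, against 23% of all genes. It was 2 of 5 at P5, against 22.6%, and 2 of 5 at P8, against 26.1%. All of these were lower in Cd73PC, as were 14.4%, 15.5%, and 18.6% of all genes at the respective stages. With 5 genes, these counts by themselves are no result about the members. Prox1 was higher in Cd73NC by 3.79-fold, 6.86-fold, and 7.82-fold in order of stage, with log2 ratios of -1.73, -2.59, and -2.91, and 242, 29, and 62 genes had smaller ratios at the respective stages. Onecut2 did not differ beyond its bounds at P2 and was higher in Cd73NC by 4.32-fold at P5 and 4.09-fold at P8, with log2 ratios of -0.90 and -0.82. Onecut1 was 2.08-fold higher in Cd73PC at P2, 127 against 48 reads in libraries of 1.62 and 1.27 times the depth of E18, with bounds that did not overlap. Its log2 ratio on FPKM + 1 was 0.55, short of 1.5-fold, and it overlapped between the fractions at P5 and P8. Lhx1 and Calb1 overlapped between the fractions at all 3 stages. Lhx1 had at most 6 reads in a fraction, and Calb1 1 to 3 at P5 and P8, so differences there were not detectable.

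The difference shared by the 3 stages was tested with limma on log2(FPKM + 1) of the 6 sorted libraries, with stage as a block, over the 13059 genes that reached FPKM 1 in at least 1 of them. Lhx1 and Calb1 did not reach it. Prox1 was lower in Cd73PC by a log2 difference of -2.41 (SE 0.25, Benjamini-Hochberg adjusted p = 0.00403), in 3 of 3 stages. Of all genes tested, 19.2% were lower at an adjusted p under 0.05. Without P5 the adjusted p of Prox1 was 0.0582, at a log2 difference of -2.32. Onecut2, at -0.59 (SE 0.25, limma adjusted p = 0.137), and Onecut1, at 0.20 (SE 0.23, limma adjusted p = 0.55), did not pass. The fit takes the stages as replicates of the sort, and with 3 pairs it says nothing about how the difference varies with stage.

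**Figure D4:**
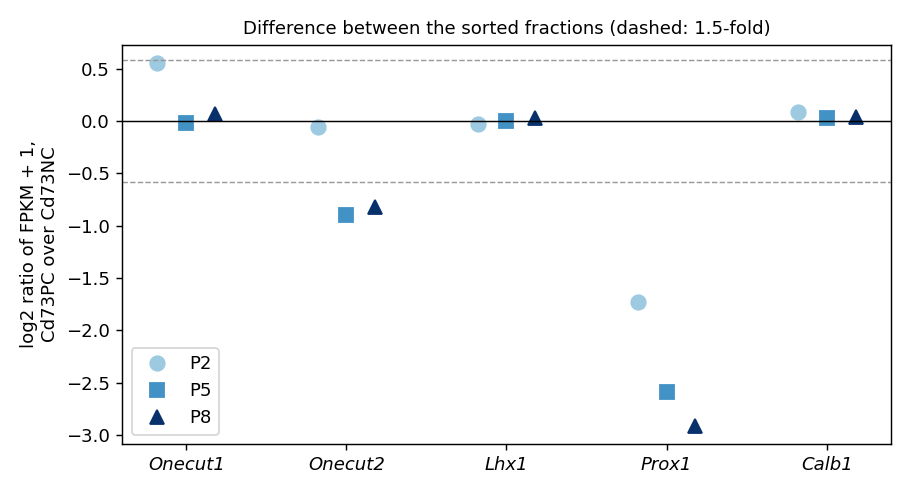
Log2 ratio of FPKM + 1 in Cd73PC over Cd73NC for each gene at P2 (light circles), P5 (squares), and P8 (dark triangles), with 1 library per fraction and stage and hence no error bars. Dashed lines are 1.5-fold. Prox1 lies between -1.73 and -2.91 and Onecut2 at -0.90 and -0.82 from P5, while Onecut1 at P2 lies at 0.55.

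Within the fractions, Prox1 was the only member to pass 1.5-fold upward on FPKM + 1. In Cd73NC it was the 1 member past 1.5-fold between P2 and P5, at 2.26-fold, where 17.4% of all genes passed, 7.93% of all upward. It was again the 1 member to pass between P5 and P8, at 4.05-fold, where 16.3% passed, 8.47% upward, and 241 genes had a larger ratio. In Cd73PC, Onecut1 was the 1 member to pass between P2 and P5, 3.99-fold lower, where 11.9% of all genes passed, 8.57% downward. Prox1 was the 1 member to pass between P5 and P8, 3.56-fold higher, where 8.09% passed, 3.31% upward, and 64 genes had a larger ratio. Members at low levels moved without passing on FPKM + 1. From P2 to P5, Calb1 was lower in both fractions, and Onecut2 was lower in Cd73PC but 1.76-fold higher in Cd73NC. None of these bounds overlapped between P2 and P5, nor did those of Onecut1 between P5 and P8 in Cd73NC, where it was lower at P8. These comparisons share libraries with each other and with those between the fractions, so their values are not independent. Prox1 made up 30.7% of the summed FPKM of the 5 genes at E15, 58.5% at E18, and 89.3%, 95.3%, and 99.1% in Cd73NC at P2, P5, and P8. The other 4 genes together amounted to 23.5 FPKM at E15 and 1.46 FPKM in P8 Cd73NC.

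Onecut1, Onecut2, Lhx1, and Calb1 were each highest in an embryonic library, and Prox1 in P8 Cd73NC, so the 5 genes together did not share a course. Horizontal cells make up a small share of retinal neurons, and their part in these values was not tested. In P8 Cd73NC, Prox1 was at 166 FPKM, Onecut2 at 1.34, Onecut1 and Calb1 at 0.0812 and 0.0329 on 6 and 2 reads, and Lhx1 at 0. Gja10, a connexin of horizontal cells, had 0 reads there, after 7 reads at E15 and 4 at E18, while Sall3 and Megf10, also known from horizontal cells, were at 3.18 and 7.40 FPKM. Markers of other classes in which Prox1 is known were read beside it. Over E18 and the P2, P5, and P8 Cd73NC libraries, the summed FPKM of 9 bipolar cell markers was 41.8, 44.9, 83.9, and 962, with Cabp5 at 183 and Grm6 at 162 in the last. In Cd73PC at P2, P5, and P8 it was 43.0, 30.2, and 117. Of these 9 genes, 9 were past 1.5-fold lower in Cd73PC at P8, against 18.6% of all genes. At P2, 2 were lower and 3 higher, against 14.4% and 8.57%. Müller glia markers summed to 951, 1343, 1823, and 1369 FPKM at E18 and in P2, P5, and P8 Cd73NC. Apoe alone made 65.7, 110, 518, and 540 of these sums. From P5 to P8 in Cd73NC, 1 of the 8 markers was past 1.5-fold higher and 3 were lower, where 16.3% of all genes passed, 8.47% upward. In Cd73PC the markers summed to 606, 489, and 350 FPKM by stage. Among 11 amacrine markers, Dab1 was at 11.8, 13.4, 15.6, and 33.7 FPKM at E18 and in P2, P5, and P8 Cd73NC. Its level in Cd73PC by stage was 6.91, 5.27, and 5.50. Dab1 was the 1 amacrine marker past 1.5-fold higher from P5 to P8 in Cd73NC, and 7 were lower, where 16.3% of all genes passed, 8.47% upward. Prox1 is also a lens gene, and the 8 lens markers summed to 0.66 to 6.31 FPKM over the 8 libraries, with Foxe3 at 0 in all. The part of these cells in the level of Prox1 was not tested.

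**Figure D5:**
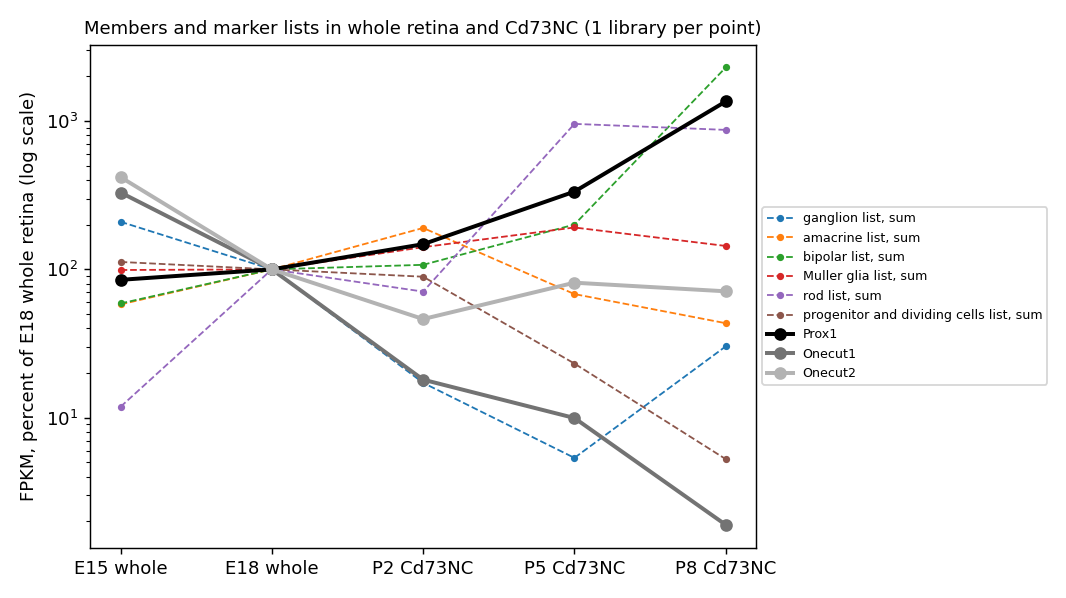
FPKM as a percent of the value in E18 whole retina, on a log axis, for Prox1, Onecut1, and Onecut2 (thick lines) and for the summed marker lists of 6 other cell classes (dashed lines), in whole retina at E15 and E18 and in Cd73NC at P2, P5, and P8, with 1 library per point. Prox1 and the bipolar, Müller glia, and rod lists are above E18 in P5 and P8 Cd73NC. Onecut1, Onecut2, and the ganglion and progenitor lists are below it in all 3 Cd73NC libraries. The amacrine list is above it at P2 and below it at P5 and P8.

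Markers of ganglion cells, progenitors, cones, and amacrine cells were read beside the other members. The summed FPKM of 12 ganglion cell markers was 2149 at E15 and 1026 at E18. It was 176, 54.9, and 310 in Cd73NC at P2, P5, and P8, where Isl1, which bipolar cells also express, made 294 of the last value. Of the 12, 8 were past 1.5-fold lower and 2 higher at E18 than at E15, against 2.1% and 4.61% of all genes. From E18 to P2 Cd73NC 11 were lower, against 8.21%. Atoh7 made 564 FPKM of the sum at E15 and 116 of that in P2 Cd73NC. Sncg was at 485, 295, and 3.65 FPKM at E15, at E18, and in P2 Cd73NC, and Rbpms at 55.1, 40.1, and 1.79. The 2 higher at E18 were Thy1, at 2.28 and 29.2 FPKM at E15 and E18, and Pou4f3, at 6.21 and 11.7. The 9 progenitor and division markers summed to 2288 and 2039 FPKM in the embryonic libraries and to 1819, 472, and 107 in Cd73NC. At P2, where Onecut1 was 2.08-fold higher in Cd73PC, the 9 cone markers summed to 1431 FPKM in Cd73PC and 147 in Cd73NC. Gngt2, at 1259.8 FPKM in Cd73PC, made most of this, and 4 of 9 were past 1.5-fold higher, against 8.57% of all genes. Among the 4 was Thrb, a thyroid hormone receptor of cones, at 15.0 FPKM in Cd73PC and 5.40 in Cd73NC. Amacrine markers summed to 110 FPKM at E18 and to 210, 75.1, and 47.8 in Cd73NC, with Tcfap2a at 44.0 and Tcfap2b at 85.9 of the P2 value. The part of these cell classes in the members' values was not tested.

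A wider list of 23 genes known from horizontal cells, their precursors, or partners of the 5 proteins was also read. Of these, 6 are also on the amacrine list and 1 is on the cone list. All 23 were in the tables and 19 reached FPKM 1 in at least 1 library. Their highest level fell in E15 for 5 genes, in E18 for 2, in a Cd73NC library for 13, and in a Cd73PC library for 3. Between the fractions, 12 of 23 were lower and 2 higher in Cd73PC at P2 and again at P5, and 9 were lower and 1 higher at P8. Of all genes, 8.57%, 7.03%, and 7.54% were higher in Cd73PC at these stages, and the shares lower are those given above for the members. The median log2 ratios of the list were -0.67, -0.67, and -0.17, against 0, 0, and -0.02 over all genes. Over genes that reached FPKM 1 in at least 1 library, the medians were -0.13, -0.17, and -0.22. At P8 the list was therefore not lower than expressed genes in general. By P8, 10 of 23 were below FPKM 1 in both fractions.

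The genes of precursors were at low levels by P8. Foxn4, which acts upstream of Ptf1a, was at 73.7 FPKM at E15, 61.9 at E18, and 36, 9.03, and 1.57 in Cd73NC at P2, P5, and P8. Ptf1a was at 16.1, 13.1, 26.0, 2.91, and 0.134 FPKM in the same libraries, with its peak at P2. The AP-2 factors of horizontal and amacrine cells, listed under their older symbols, peaked at P2 as well: Tcfap2a at 44.0 FPKM and Tcfap2b at 85.9 in P2 Cd73NC, against 17.8 and 36.9 at E18 and 0.182 and 0.371 in P8 Cd73NC. Onecut3, the third Onecut gene, was at 4.47 FPKM at E15, 1.27 at E18, and at most 0.124 in any postnatal library. Lhx5, Prox2, Pvalb, and Gja10 stayed below FPKM 1 throughout.

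Calb2, Gad1, Gad2, and Slc32a1 were at higher levels at E18 than in P8 Cd73NC. Calb2, which encodes calretinin, a relative of calbindin found in amacrine and ganglion cells, was at 116 FPKM at E18, where Calb1 was at 1.24. It reached 26.6 at E15 and was at 18.8, 8.86, and 0.607 in Cd73NC at P2, P5, and P8. Like Calb1 it was highest at E18 among the 8 libraries. Gad1 and Gad2, the enzymes that make GABA, were at 5.16 and 9.04 FPKM at E18, 5.47 and 11.9 in P2 Cd73NC, and 0.217 and 1.54 in P8 Cd73NC. Slc32a1, the vesicular transporter of GABA and glycine, was at 9.90, 16, and 1.21 FPKM in these libraries.

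Partner and spacing genes did not share a common course. Ldb1, a cofactor of LIM homeodomain proteins such as Lhx1, was at 117 FPKM at E15 and 89.8 in P8 Cd73NC, and at 68.5, 47.5, and 26.2 in Cd73PC at P2, P5, and P8. Ldb2 was at 6.85 FPKM at E15 and 31.2 in P8 Cd73NC. Ssbp3, which binds Ldb proteins, stayed between 61.1 and 110 FPKM in all 8 libraries. Ssbp2, of the same family, was between 6.51 and 14.0. Megf10 and Megf11, cell surface proteins that space horizontal cells in a mosaic, were at 8.28 and 2.77 FPKM at E18, at 7.40 and 1.29 in P8 Cd73NC, and at 0.999 and 0.386 in P8 Cd73PC. Sall3 was between 1.2 and 3.35 FPKM in all libraries. Rxrg, a retinoid receptor of cones, and Sept4 were higher in Cd73PC at P2, at 26.9 against 3.48 and at 40.6 against 18.9 FPKM. Rorb, which acts in both rods and horizontal cells, lay between 37.1 and 81.8 FPKM.

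For each member, the 3 genes with the most similar course were named by Pearson's r of log2(FPKM + 1) over the 8 libraries, among about 10860 genes that reached FPKM 5. These are descriptions over libraries that share stages and the sort. Onecut1 was most like Dhx57 (r = 0.986), Ecel1 (0.979), and Klf7 (0.976). Ecel1 was at 26.5 FPKM at E15 and 0.229 in P8 Cd73NC, whereas Dhx57 stayed between 4.02 and 10.2. Onecut2 was most like AI314180 (0.980), Copz2 (0.977), and Fam59b (0.969). Fam59b was at 9.58 FPKM at E15 and 2.1 at E18. Lhx1 was most like Pou4f1 (0.997), Tmem163 (0.995), and Pou4f3 (0.994), of which Pou4f1 and Pou4f3 are ganglion cell factors. Pou4f1 was at 28.0 FPKM at E15, 26.9 at E18, and 1.09 in P2 Cd73NC. Prox1 was most like Pcdhgb5 (0.987), Pcdhgc3 (0.982), and Tmem198 (0.978). Pcdhgb5 and Pcdhgc3 belong to the gamma-protocadherin cluster, whose members share exons, so their separate values are uncertain. Pcdhgc3 was at 21.6 FPKM at E18 and 85.9 in P8 Cd73NC. Calb1 was most like Gmeb2 (0.965), Atp1b1 (0.954), and Cdkn2d (0.935), all of which stayed above FPKM 3 in every library. Lhx1 and Calb1 did not reach FPKM 5 and so could not be named for another member. Onecut1, Onecut2, and Prox1 could be, and none of them was among the 3 most similar to another member. The closest pair of members was Onecut1 and Lhx1 at r = 0.904, followed by Onecut1 and Onecut2 at 0.862, and Prox1 with Onecut1 was at -0.439.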

How the data were processed

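RNA was sequenced by the authors from 8 mouse retina samples as single reads of 36 bases. Per the submitters' processing notes, TopHat2 2.0.8b and Cufflinks 2.1.1 were used with build mm9, and the deposited values are FPKM with confidence bounds for 23021 rows per library. These are scaled to transcript length and mapped reads, and total reads are unknown. Failed rows were taken as missing, 784 rows of small RNAs were left out, and rows of 235 symbols were summed, which left 21831 genes. Groups followed the sample titles. Ratios were taken on FPKM + 1 with a threshold of 1.5-fold and no test, as each condition had 1 library. A limma 3.58.1 fit of the fractions with stage as a block was added after the data were seen. Relative depth and reads were read from rows below FPKM 0.3 and from whole steps of FPKM (tolerance 0.05 reads). Genes named were all 5 members, the 23 companion genes, the 3 most similar genes of each member, the most abundant cell type markers, and Nt5e. Ecel1 and the other similar genes whose levels are given, and further markers, were picked from these after their values were seen. The members and lists were chosen with earlier results of these data known, and some genes of the lists are not reported here and entered no list value. Alternatives were no pseudocount or 0.1, upper-quartile scaling, quantile normalization, a 2-fold threshold, a filter at FPKM 1, and Spearman's rho. Python 3.11.15, numpy 2.4.6, pandas 2.3.3, and scipy 1.17.1 were used, and scripts were tested on simulated data.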

Additional observations from a re-analysis of the deposited data

Results flagged for a closer look

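Onecut2 differed in opposite directions between the fractions from P2 to P5, with bounds that did not overlap in either: the log2 ratio of FPKM + 1 was 0.44 in Cd73NC and -0.41 in Cd73PC. Prox1 did so from E18 whole retina to P2, with log2 ratios of 0.53 in Cd73NC and -1.20 in Cd73PC, which share the E18 library. Neither difference was tested, as there was 1 library per condition. No group had the 4 samples needed to look for a sample far from the others.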

How the results depend on the processing

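No member past 1.5-fold changed direction under the alternatives run, but several lost or gained the call. Between Cd73PC and Cd73NC, members past 1.5-fold at P2 were 1 and became 2, with Onecut1 higher in Cd73PC, with a pseudocount of 0.1, with none, with upper-quartile scaling, and with quantile normalization. At P5 the count of 2 became 3 with no pseudocount, with Calb1 higher in Cd73PC on 2 against 1 reads, and 1 at a threshold of 2-fold, and at P8 the count of 2 became 4 with no pseudocount, 1 with quantile normalization, and 1 at 2-fold. In Cd73NC the count from P2 to P5 went from 1 to 5 with a pseudocount of 0.1 and with none, and from P5 to P8 from 1 to 2 and 3. In Cd73PC it went from 1 to 3 and 4, and to 0 at 2-fold, from P2 to P5, and from 1 to 2 and 3 from P5 to P8. From E18 to P2, counted after the data were seen, 5 lower members in Cd73PC became 4 with upper-quartile scaling, 2 with quantile normalization, and 3 at 2-fold, and 4 lower in Cd73NC became 2 lower and 1 higher with quantile normalization and 2 at 2-fold. From E15 to E18, 3 became 2 with quantile normalization and at 2-fold, without Calb1. With no pseudocount, Lhx1 gave no ratio where it was at 0 in P8 Cd73NC. Of the 15 most similar genes, 8 were named again with a pseudocount of 0.1 and 1 with Spearman's rho. The median log2 ratio of genes reaching FPKM 1, Cd73PC over Cd73NC, was -0.13, -0.17, and -0.22 at P2, P5, and P8, so the ratios of Prox1 and Onecut2 at these stages are somewhat smaller relative to it. Lhx1 and Calb1 had 0 to 3 reads in the P5 and P8 libraries, and their bounds overlapped among these, so differences among these libraries were not detectable. In the limma fit over 3 stages, 1 member passed, Prox1. Without the replicate block for stage 0 passed, with 1049 of all genes in place of 3668 and an adjusted p of 0.132 for Prox1, and with 1 stage left out in turn 0 to 1 passed, 0 without P5, where 289 of all genes did. Genes at an unadjusted p under 0.05 numbered 3694 and 3295 in these fits.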

Other observations

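Slc6a9, the glycine transporter listed among the amacrine markers, was higher in Cd73PC than in Cd73NC at each stage, at 47.9 against 6.56 FPKM at P2, 72.3 against 40.7 at P5, and 50.7 against 10.4 at P8.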
